A study of Mus musculus with 7 samples.

Results

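The 6 genes described here encode partners of the cardiac sodium pump and the exchanger that works beside it: the pump beta subunits Atp1b1, Atp1b2 and Atp1b3, the FXYD proteins Fxyd1 and Fxyd5, and the sodium-calcium exchanger Slc8a1. They are 6 of 23678 genes measured, a count that takes each transcript without a gene symbol as a gene of its own. Of these, 14722 have a symbol. On the array, 11 of 56605 non-control probes carry an accession of one of the 6. The 6 were chosen by name with the processed signals of knockout against control arrays already known, so their differences between the groups are given as a description, with no p-value for any of them. Signal was measured in heart apex of 7 male C57Bl/6 mice, 1 single-colour Agilent array per mouse. The 3 double knockout mice (DKO) were heterozygous for MHC-mercremer, a Cre recombinase that tamoxifen switches on and that the alpha myosin heavy chain promoter restricts to cardiomyocytes, and homozygous for loxP-flanked AKT1 (exons 6 and 7) and AKT2 (exons 5 and 6). The 4 controls were also heterozygous for MHC-mercremer, and their labels name no floxed allele. The daily dose of OH-tamoxifen was 500 µg over 5 days in both groups, and hearts were taken at day 10 after induction from mice aged 3 months. The sample titles call both groups untreated, the protocol adding that nothing beyond the induction was applied. The recombinase acts in cardiomyocytes only, while the RNA came from all cells of the apex, so fewer cells of a type and less RNA per cell cannot be told apart.

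The sodium pump moves sodium out of the cell and potassium in, using ATP. Its alpha subunit carries out the transport, its beta subunit brings the complex to the cell surface, and a small FXYD protein sets its affinity for sodium or its rate. In heart muscle the sodium gradient made by the pump drives Slc8a1, also called NCX1, which removes calcium from the cell after each beat, and phospholemman, the product of Fxyd1, restrains the pump until kinases phosphorylate it.

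Promoter sequence from RefSeq (GRCm38.p6) was matched for 5 of the 6 genes, in 6 windows since Atp1b3 has a pair of starts there. The 250 bases before the start are shown for 3 genes, chosen because Atp1b1 and Atp1b3 had the most alike values of any pair of members over the 7 arrays, while Slc8a1 alone had a lower mean in DKO at its brightest probe. All lie on the minus strand and are printed 5′ to 3′, with capitals marking the GC box (GGGCGG on either strand, the element that Sp1 family factors bind). The windows are chr1:164458356-164458605 for Atp1b1, chr9:96364432-96364681 for Atp1b3 and chr17:81738388-81738637 for Slc8a1.
Atp1b1: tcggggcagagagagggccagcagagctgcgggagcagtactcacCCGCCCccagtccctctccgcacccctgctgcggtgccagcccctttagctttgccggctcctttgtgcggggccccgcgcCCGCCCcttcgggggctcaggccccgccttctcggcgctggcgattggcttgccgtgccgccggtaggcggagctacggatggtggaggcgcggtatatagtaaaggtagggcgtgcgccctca
Atp1b3: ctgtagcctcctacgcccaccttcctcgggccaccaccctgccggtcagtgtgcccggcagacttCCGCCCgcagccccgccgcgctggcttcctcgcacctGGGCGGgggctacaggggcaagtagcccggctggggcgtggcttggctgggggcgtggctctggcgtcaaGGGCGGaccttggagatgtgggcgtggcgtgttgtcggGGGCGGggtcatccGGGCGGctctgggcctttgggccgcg
Slc8a1: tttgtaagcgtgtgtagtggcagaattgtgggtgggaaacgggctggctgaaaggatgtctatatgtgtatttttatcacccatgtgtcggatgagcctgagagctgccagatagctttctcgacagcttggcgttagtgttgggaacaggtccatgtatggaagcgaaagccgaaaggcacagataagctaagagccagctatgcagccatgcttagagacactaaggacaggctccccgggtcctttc
The Atp1b1 window held 2 GC boxes and the Atp1b3 window 5, against 0 in the Slc8a1 window, and GC content was 70.4%, 73.6% and 50.4%. A GC box was in 2 of the 6 member windows, those of Fxyd1, Fxyd5 and the other Atp1b3 start holding 0 as well, and in 32.7% of 32851 windows of this length. The FoxO site GTAAACA was in 3.17% of all windows and in 0 of the 6 member windows, and the TATA box TATAAA in 12.4% and 0. The E-box CACGTG was in 6.02% of all windows and in 1 member window, that of the other Atp1b3 start, and since the printed windows hold none of the other motifs, no GC box there overlaps one. Both strands were searched for each motif, and a match is a description of the letters alone.

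On each array 50.9% to 55.7% of the probes passed the scanner software's test for signal well above background, and 0 spots were saturated. Precision is limited by the 7 arrays. Akt2 was 4.13-fold lower in DKO at its brightest probe (limma, adjusted p = 0.000203 over probes), and it was lower at its other 2 probes too (log2 differences -2.29 and -0.68). Both Akt1 probes read higher in DKO (log2 differences 0.17 and 0.47; limma adjusted p = 0.199 and 0.139 over probes). Where these probes lie relative to the deleted exons was not analysed here, so the Akt1 probes check nothing. All 10 cardiomyocyte markers examined were well above background on every array. Control replicate 1 stood apart from the other controls over the whole array (r = 0.984 to 0.987, against 0.992 to 0.994 among the rest), and had the most outlier spots (249). Without it the differences of Atp1b1, Atp1b2, Atp1b3, Fxyd1, Fxyd5 and Slc8a1 described below were 0.06, 0.19, 0.08, 0.05, 0.09 and -0.03. All values below are log2 of the processed signal, scaled to the 75th percentile of each array. Probes differ in how strongly they bind, so levels are not compared between probes.

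Among the beta subunits, Atp1b1 is the main partner of the pump in heart muscle. Its probe (NM_009721) read 13.26, 13.38, 13.21 and 13.38 in control replicates 1 to 4 and 13.53, 13.38 and 13.25 in DKO replicates 1 to 3. DKO replicate 1 was above every control and the other DKO values lay among the controls, so the groups overlapped. The means were 13.31 ± 0.09 (SD, n = 4) and 13.39 ± 0.14 (SD, n = 3), and the log2 difference of 0.08 ± 0.09 (SE) was smaller than the spread within DKO. Its 95% interval ran from -0.14 to 0.30, so the arrays leave room for changes up to 1.23-fold upward. The difference was 0.01 without DKO replicate 1 and 0.15 without DKO replicate 3.

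Atp1b2, known as the adhesion molecule on glia, was higher in every DKO heart than in any control heart by a small margin, as were 13.2% of all genes. The brighter of its 2 probes read 10.49, 10.50, 10.43 and 10.49 in the controls and 10.60, 10.54 and 10.87 in DKO. DKO replicate 3 lay well above the rest. The log2 difference was 0.19 ± 0.09 (SE; 95% interval -0.03 to 0.41), with means of 10.48 ± 0.03 and 10.67 ± 0.18 (SD, n = 4 and 3), and it fell to 0.09 without DKO replicate 3. The dimmer probe read 5.04, 4.73, 5.06 and 4.53 in control and 5.15, 5.56 and 5.71 in DKO, and again the groups did not overlap. DKO lay wholly above control at 13.5% of all probes. In control, 3 of 4 arrays were well above background at the dimmer probe. Its difference of 0.63 ± 0.18 (SE; 95% interval 0.20 to 1.06) was larger than that of the brighter probe, although both carry the accession NM_013415.

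Markers of Schwann cells and other glia are given beside Atp1b2. Of 8 listed, 6 were measured and 5 of these were higher in DKO (median log2 difference 0.15), Cdh19 being the exception at -0.71 and the 2 not measured having failed the background filter. None of the 6 passed in limma and 2 had an unadjusted p below 0.05, as did 25.5% of all genes. Their summed signal ran from 9.72 to 9.82 in control and from 9.82 to 10.13 in DKO. The median over the list, relative to the control means, was highest on DKO replicate 3 at 0.31, the array on which the brighter Atp1b2 probe was highest, and was 0.18 and 0.16 on DKO replicates 1 and 2. The glial transcription factor Sox10 and the calcium-binding protein S100b differed by 0.30 and 0.37 (limma, adjusted p = 0.0690 and 0.119). Their part in the Atp1b2 difference was not tested.

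Atp1b3, a beta subunit found in many tissues, had 3 probes, all for the accession NM_007502, whose differences were 0.07, 0.14 and 0.30. The brightest read 10.56, 10.59, 10.48 and 10.48 in control and 10.67, 10.65 and 10.46 in DKO, a difference of 0.07 ± 0.08 (SE; 95% interval -0.12 to 0.26). DKO replicate 3 lay below all controls there and the other DKO replicates above them. The second probe read 10.25, 10.22, 10.23 and 10.33 in control and 10.42, 10.47 and 10.29 in DKO, with DKO replicate 3 within the control range. The third read 8.31, 8.38, 8.28 and 8.41 in control and 8.71, 8.66 and 8.57 in DKO. All 3 DKO values of this probe exceeded every control value, as at 13.5% of all probes, with a difference of 0.30 ± 0.07 (SE; 95% interval 0.13 to 0.48). The brightest probe's difference became 0.03 without DKO replicate 1 and 0.13 without DKO replicate 3.

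**Figure D1:**
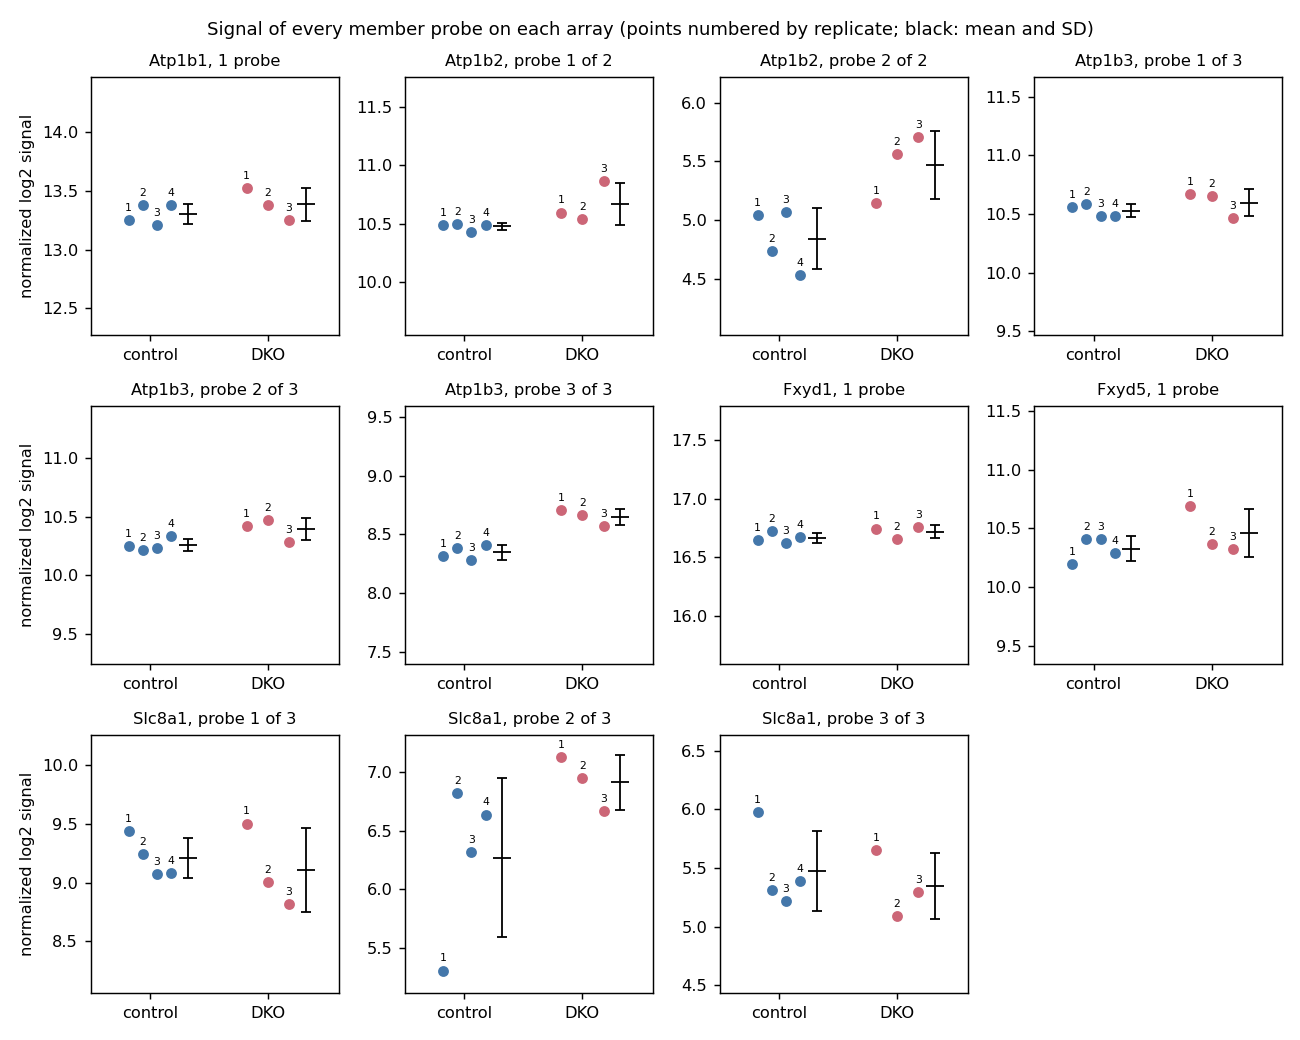
Normalized log2 signal (vertical axis, the same span of values in each panel) of the 11 member probes in control (blue, 4 arrays) and DKO hearts (red, 3 arrays). Points are arrays numbered by replicate, and black marks are the mean and SD. The groups separate in 3 panels, both Atp1b2 probes and probe 3 of Atp1b3, and overlap in the other 8. DKO lay wholly above control at 13.5% of all probes.

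Of the FXYD proteins, Fxyd1 encodes phospholemman, the main pump regulator of heart and skeletal muscle. Its single probe (NM_052992) read 16.65, 16.72, 16.62 and 16.67 in control and 16.75, 16.66 and 16.76 in DKO. DKO replicates 1 and 3 were above every control by a small margin and DKO replicate 2 lay among them. The log2 difference was 0.05 ± 0.07 (SE), with means of 16.67 ± 0.04 (SD, n = 4) and 16.72 ± 0.06 (SD, n = 3), and the 95% interval of -0.11 to 0.21 was the narrowest of the 6 genes. The spot's median signal was 12.8% to 17.2% of the scanner's saturation value. The difference was 0.09 without DKO replicate 2 and 0.03 without DKO replicate 3.

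Fxyd5 encodes dysadherin, a pump partner that also affects cell adhesion. Its probe (NM_008761) read 10.20, 10.41, 10.41 and 10.29 in control and 10.69, 10.37 and 10.32 in DKO. A single array, DKO replicate 1, lay above the controls, and without it the difference of 0.13 ± 0.11 (SE; 95% interval -0.14 to 0.40) became 0.02. Endothelial markers were higher in DKO for 8 of 8 genes (median 0.20), or for 6 to 8 under other scalings. In limma 0 of them passed the threshold and 2 had an unadjusted p below 0.05, as did 25.5% of all genes. The endothelial list medians on DKO replicates 1 to 3 were 0.19, 0.23 and 0.14. Immune markers were higher for 6 of 8 measured genes (median 0.09, with 0 past the threshold). The immune list medians were -0.14, 0.27 and 0.19 on DKO replicates 1 to 3, and Fxyd5 was highest on DKO replicate 1. Of 8 mural cell markers 6 were higher and 1 rose, the smooth muscle myosin Myh11 (0.63; limma adjusted p = 0.0487), with a list median of 0.29. Acta2, smooth muscle actin, lay the other way at -0.41 (limma adjusted p = 0.128), and the summed mural signal was 16.02 to 16.27 in control and 15.98 to 16.19 in DKO. Both measured adipocyte markers, of 5 listed, were higher (median 0.67, neither past the threshold). Of 4 measured atrial markers 3 were lower (median -0.66), and the potassium channel gene Kcnj3 fell by 0.89 (limma adjusted p = 0.0122). Nppa, the remaining atrial marker, lay the other way at 0.82 (limma adjusted p = 0.0788). The summed atrial signal was 15.97 to 16.73 in control and 16.93 to 17.51 in DKO. This sum is almost wholly Nppa, whose control mean was 16.31 against at most 9.77 for the other measured atrial markers. Of the 4 measured, 3 were well above background on every array. Fibroblast markers were higher for 7 of 8 genes (median 0.12, with 0 past the threshold). The part of these cell types in the Fxyd5 values was not tested.

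Slc8a1 is the sodium-calcium exchanger of the cardiac cell membrane. The brightest of its 3 probes (NM_001286684) read 9.44, 9.25, 9.08 and 9.08 in control and 9.50, 9.01 and 8.81 in DKO, and DKO arrays held both the highest and the lowest value. The log2 difference of -0.10 ± 0.18 (SE) had a 95% interval of -0.52 to 0.32, the widest of the 6 genes. It turned to 0.04 without DKO replicate 3, reached -0.30 without DKO replicate 1 and was -0.03 without control replicate 1. A probe for the accession NM_011406 read 5.31, 6.82, 6.32 and 6.64 in control and 7.13, 6.95 and 6.66 in DKO. Its difference was 0.64 ± 0.35 (SE), with control replicate 1 standing far below the rest. In control, 3 of 4 arrays were well above background at this probe. A probe for the noncoding transcript NR_104580 read 5.98, 5.31, 5.21 and 5.39 in control and 5.65, 5.09 and 5.29 in DKO, a difference of -0.13 ± 0.21 (SE). The probes of Slc8a1 thus differed in direction, and none separated the groups. Cardiomyocyte markers had list medians of 0.05, -0.02 and -0.12 on DKO replicates 1 to 3, highest and lowest on the same arrays as the brightest Slc8a1 probe, and their part in its values was not tested.

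Across the members, 5 of the 6 brightest probes were higher in DKO, with a median log2 difference of 0.07 against -0.02 over all genes tested. None of the 6 genes passed an adjusted p of 0.05 in limma, where 4.7% of all genes passed, and 0 had an unadjusted p below 0.05, where 25.5% of all genes did. Since this contrast was known when the 6 were chosen, nothing is read from these counts or from those over their probes. One member, Atp1b2, had DKO values wholly above control, as did 13.2% of all genes. At the level of probes, 3 of 11 had DKO wholly above control, where 13.5% of 30466 probes did. Of the 11 probes 0 passed the adjusted threshold in limma, which 4.4% of all probes did, and 2 had an unadjusted p below 0.05, as did 24.9% of all probes. The SD within groups was 0.05 for Fxyd1, which 2.51% of genes undercut, and 0.26 for Slc8a1, which 71.8% did, with a median of 0.16 over all genes. The header of each file places the arrays in 2 rows of the slide. In the row with 3 controls and 1 DKO the differences of Atp1b1, Atp1b2, Atp1b3, Fxyd1, Fxyd5 and Slc8a1 were -0.03, 0.40, -0.04, 0.11, 0.02 and -0.39. In the row with 1 control and 2 DKO they were 0.07, 0.07, 0.07, -0.02, 0.12 and 0.01. Each row rests on 1 array in a group, so nothing is read from these signs.

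**Figure D2:**
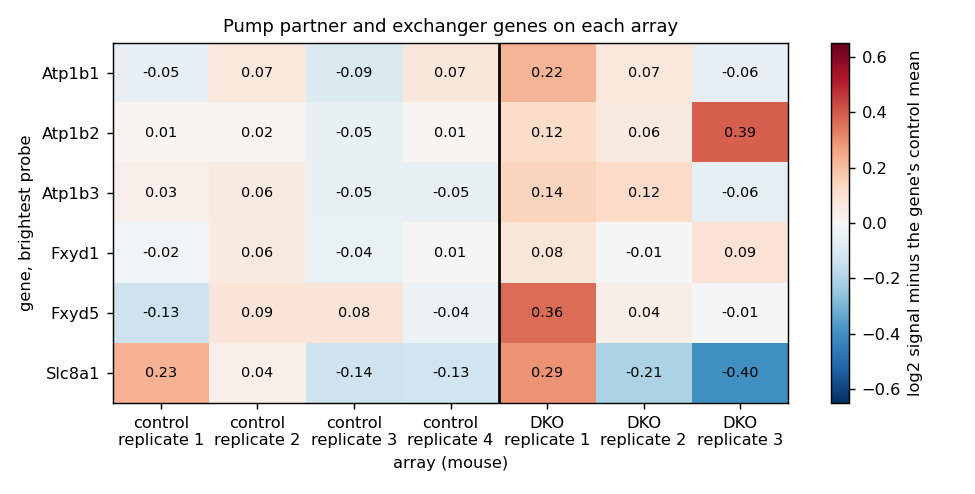
Log2 signal minus the gene's control mean (colour and printed value) on each of the 7 arrays for the brightest probe of the 6 members. Values range from -0.40 for Slc8a1 to 0.39 for Atp1b2, both on DKO replicate 3, and Fxyd5 is highest on DKO replicate 1 at 0.36.

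Other FXYD, exchanger, ion pump and pump regulator genes were measured beside the members. Of 52 listed, 43 were measured, 0 rose and 3 fell past an adjusted p of 0.05 in limma, where 2.41% of all genes rose and 2.29% fell. Among genes with a symbol, 5.3% passed in either direction. The median log2 difference of the 43 was -0.02. At an unadjusted p below 0.05 stood 16 of the 43, and 25.5% of all genes. Groups did not overlap in 17 of the 43, DKO being above in 8 and below in 9, where 13.2% and 12.5% of all genes were above and below. Those that fell were Slc9a7, a sodium-proton exchanger of the trans-Golgi network, Nkain1, which encodes a small membrane protein named for its interaction with the pump, and Slc9a3, the exchanger best known from kidney and gut. Of these, Slc9a3 entered the test only through the control arrays, so its place in the count is not support for a difference.

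Slc9a7 read 7.83, 7.64, 7.66 and 7.69 in control and 7.30, 7.22 and 7.19 in DKO (log2 difference -0.47 ± 0.08, SE; limma adjusted p = 0.0260), and its dimmer probe differed by -0.50 ± 0.13. Nkain1 read 9.35, 9.19, 9.35 and 9.52 in control and 8.75, 8.77 and 8.74 in DKO (log2 difference -0.60 ± 0.09, SE; limma adjusted p = 0.0206), and its other probe was not well above background on any array. Slc9a3 was well above background on all 4 control arrays and on 0 DKO arrays, with measured means of 5.04 and 4.05. It passed the background filter only through the controls, so its limma call is not support for a difference. Setting the control mean against the lowest signal well above background on each DKO array gave a value 1.41-fold lower in DKO. That lowest signal is taken over all probes, so 1.41-fold is not a bound for Slc9a3. With normexp background correction the Slc9a3 difference was -0.30, or -0.28 with quantile normalization added (limma adjusted p = 0.180 and 0.0826), smaller than that value. A probe for another accession was not well above background on any array. With single arrays left out, Slc9a7 and Nkain1 passed without control replicate 1 or 2 and were lost otherwise, with adjusted p from 0.0608 to 0.0851 for Slc9a7 and from 0.0575 to 0.0805 for Nkain1. With slide row as a block both were lost (limma adjusted p = 0.0748 and 0.0642). Of the 43 genes, 0 passed without DKO replicate 1, and Slc9a3 alone without control replicate 3 or 4 or DKO replicate 2 or 3.

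Among close relatives of the members, 0 of the measured ones passed. Fxyd2, the gamma subunit of the kidney pump, differed by 0.27 ± 0.12 (SE; limma adjusted p = 0.197). Fxyd6, or phosphohippolin, differed by 0.04 ± 0.09 (adjusted p = 0.827 by limma), a sign that turned to -0.05 under quantile normalization. Slc8a3, a sodium-calcium exchanger of skeletal muscle and brain, read 13.20, 13.15, 13.20 and 13.10 in control and 12.90, 12.81 and 12.39 in DKO, with no overlap between groups (log2 difference -0.46 ± 0.13, SE; limma adjusted p = 0.0885). DKO lay wholly below control for 12.5% of all genes. A dimmer Slc8a3 probe differed by -0.04 ± 0.13. Slc8b1, the exchanger of the inner mitochondrial membrane, differed by 0.23 ± 0.16 (limma adjusted p = 0.418). The probes of Atp1b4 and Fxyd7 were not well above background on any array, those of Fxyd3 were on 1 DKO array each, and that of Fxyd4 was on control replicate 1 alone. Slc8a2, an exchanger best known from brain, differed by -0.87 ± 0.78 (SE; limma adjusted p = 0.521), a value set by control replicate 1, since without it the difference was -0.08.

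**Figure D3:**
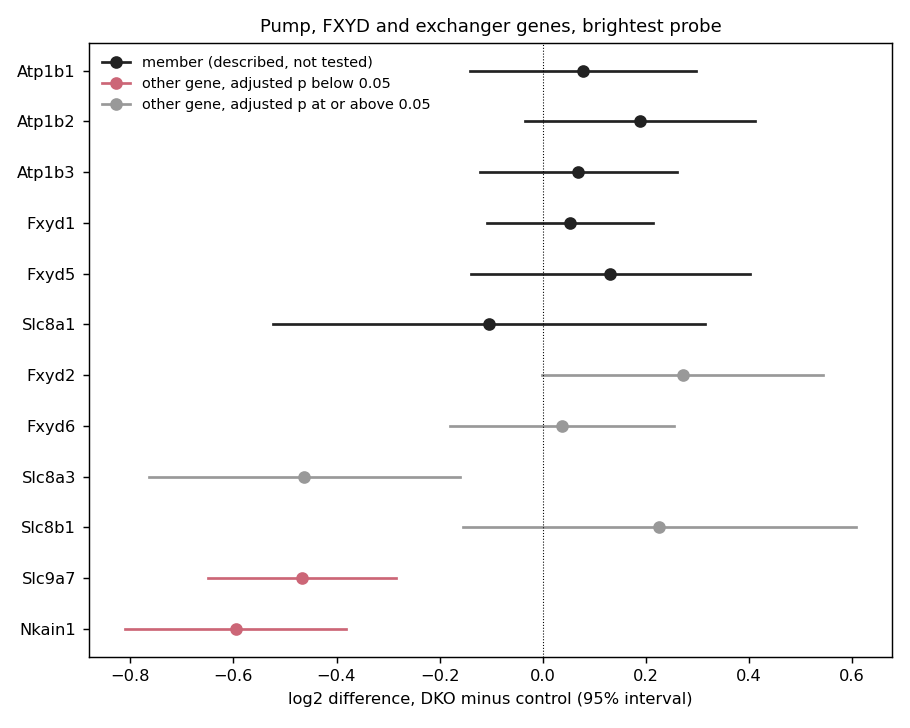
Log2 difference between DKO and control (horizontal axis, point) with its 95% interval (line) for the brightest probe of the 6 members (black) and 6 other FXYD, exchanger and regulator genes, in red where the adjusted p was below 0.05 and grey otherwise. All 6 intervals of these member probes include 0, dimmer member probes not being shown. The 2 genes in red, Slc9a7 and Nkain1, lie at -0.47 and -0.60.

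Fxyd1 and Fxyd5 share chromosome 7 with Akt2, one of the floxed genes. In the RefSeq order of tested named genes, Fxyd5 and Fxyd1 lie 107 and 108 genes after Akt2, side by side. Among the 50 tested genes on either side of Akt2, 10 of 100 passed the threshold in limma, 5 in each direction, against 5.38% of the other 1079 tested genes of the chromosome. The count was 6 without control replicate 3 or 4 or DKO replicate 2. Around Akt1, on chromosome 12, 4 of 79 passed. The other members lie on chromosomes 1, 9, 11 and 17. Whether sequence carried along with the engineered alleles bears on these values was not tested.

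**Figure D4:**
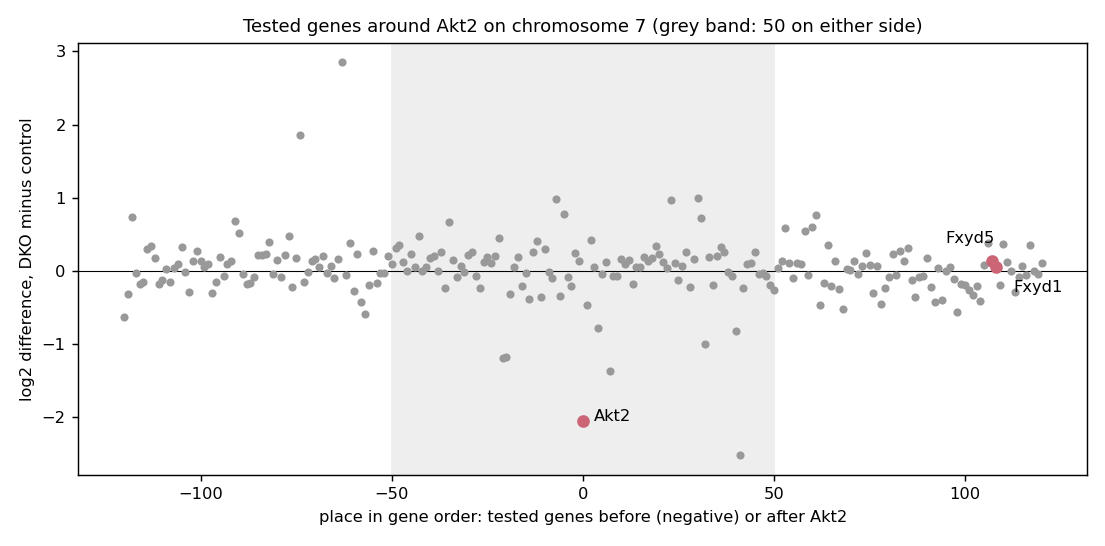
Log2 difference between DKO and control (vertical axis) of tested named genes by their place in the gene order of chromosome 7 relative to Akt2 (horizontal axis, in genes), with the 50 genes on either side shaded. Fxyd5 and Fxyd1 sit at 107 and 108 near 0 (0.13 and 0.05), outside the shaded span.

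The likeness of other genes was measured as the root mean square difference, over the 7 arrays, between values taken relative to each gene's control mean, among 14716 named genes. Nearest to Atp1b1 were Ttc30b, Thap6 and Med7 (0.03, 0.03 and 0.04 on the log2 scale), and among the nearest 3 to Atp1b2 were the magnesium transporter Cnnm4 and the corepressor Trim28 (0.02 and 0.03). For Atp1b3 they were Def8, Synj1 and Cept1 (0.03 each), and for Fxyd1 Cyria, Msl2 and the RNA methyltransferase Mettl3 (0.02 each). Fxyd5 was nearest to Trdmt1 and Cuedc2 (0.04 and 0.05). Slc8a1 was nearest to the transporter Slc4a11, D14Ertd670e and Elmod3 (0.04, 0.09 and 0.09). Between members, Atp1b1 and Atp1b3 were the closest pair at 0.07, and Atp1b2 and Slc8a1 the most distant at 0.34. These 18 nearest genes depend on the scaling, since 6 of them stayed among the nearest 3 under quantile normalization and 0 under normexp background correction.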

How the data were processed

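RNA of heart apex was hybridised to 1 array per mouse (Agilent design 074809). Per the file headers, the authors used Feature Extraction 12.0.3.1, and the deposited files give each spot's processed, median and background signal as an intensity. A deposited table of log2 values matched quantile-normalized, probe-centred signals (r at least 0.999 across probes on each array, column medians of 0), and the labels do not record how the authors made it. Control and outlier spots were left out, log2 processed signals were scaled to each array's 75th percentile (mean 9.14 added back) and spots of a probe averaged. Accessions were matched to RefSeq symbols of GRCm38.p6 (32994 of 56605 probes). The symbols were used to group probes into genes, to find the probes of members and listed genes, and for names and gene order. Probes well above background on at least 3 of 7 arrays, without missing values, were kept (30466), the brightest standing for its gene (23678). A transcript without a symbol counted as its own gene, and 14722 of the 23678 had a symbol. limma 3.58.1 (R 4.3.3; prior degrees of freedom 2.11, residual 5) compared 3 DKO with 4 control arrays, two-sided, with Benjamini-Hochberg adjustment over all genes, or over all probes for probe values. The fit was tested on simulated data.

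Members, lists and tests were chosen with earlier results of these data known. Named genes are the members, Akt1, Akt2, other beta, FXYD and Slc8 genes, listed genes past an adjusted p of 0.05, the 3 nearest genes per member and up to 2 genes per marker list with the smallest p. Some genes that this rule or the lists held are not reported here. Cdh19 and Acta2 were named after their values were seen. Arrays of a group correlated at 0.984 to 0.994, and none held identical values. Alternatives covered normalization, background correction, filter, probe summary, variance model, the authors' values, blocks and each array left out.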

Additional observations from a re-analysis of the deposited data

Results flagged for a closer look

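In 3 of 35 probes of the genes described, 1 of the 4 control arrays stood apart from the others by Dixon's criterion, which chance meets in about 1 of 20 groups. The brighter Atp1b2 probe read 10.43 on control replicate 3 against 10.49 to 10.50 on the other controls, a gap small in size. The Fxyd4 probe read 8.28 on control replicate 1 against 2.51 to 2.58 on the other controls and 2.53 to 2.80 in DKO, and was well above background on that array alone. The Slc8a2 probe, for a sodium-calcium exchanger best known from brain, read 10.37 on control replicate 1 against 7.07 to 7.37 on the other controls and 7.09 to 7.22 in DKO. Without control replicate 1 the Slc8a2 difference between DKO and control went from -0.87 to -0.08 on the log2 scale.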

How the results depend on the processing

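Under all 17 alternatives 0 of the 6 members passed the threshold, and nothing is read from this, since their contrast was known when they were chosen. The median member difference ranged from 0.02 to 0.13. Single members ranged from -0.01 to 0.15 for Atp1b1, 0.09 to 0.41 for Atp1b2, 0.01 to 0.17 for Atp1b3, 0.02 to 0.09 for Fxyd1, 0.02 to 0.20 for Fxyd5 and -0.30 to 0.14 for Slc8a1. The highest values of Atp1b2 and Atp1b3 came with the mean of their probes (0.41 and 0.17), which also turned Slc8a1 to 0.14.

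The 1114 genes called became 555 with normexp, 719 with normexp and quantile normalization, 121 with no filter, 2028 with trended and robust variances, 288 with slide row as a block, and 160 (without DKO replicate 1) to 1127 with single arrays left out. The 3 other exchanger and regulator genes called became 1, 2, 0, 10 and 1 under these settings, 5 with quantile normalization, 5 with the authors' values and 0 to 3 with arrays left out. Of genes near Akt2, the 10 called became 5 with no filter, 16 with trended and robust variances and 6 to 9 with arrays left out. Slc9a7 kept its call in 7 of 17 alternatives and Nkain1 in 9 of 17. Slc9a3 was past the threshold in 11 of 16 (it did not pass the filter on all arrays). That count is not support either, since Slc9a3 passed the main filter only through the controls. Slc8a3 passed with trended and robust variances (limma adjusted p = 0.0372). Fxyd6 turned to -0.046 with quantile normalization, -0.045 with normexp and quantile normalization, -0.028 with the authors' values and -0.039 without DKO replicate 3 (up to 0.11 with other arrays left out). Of the 18 nearest genes, 6, 0, 0, 6 and 3 stayed with quantile normalization, normexp, normexp and quantile normalization, the authors' values and the mean of probes. The cause was not tested.

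With the replicate block, 1 gene was called in all, 0 of the other pump genes and 0 near Akt2. Control replicate 4 has no DKO partner in that fit, and deviations of same-numbered arrays correlated at 0.13, 0.01 and 0.03, the second not being the highest for its number, so the numbers are not taken to pair the mice.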
